A study of Caenorhabditis elegans with 18 samples.

Results

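The response of hsf-1(sy441) larvae to heat was set against that of wild-type larvae, gene by gene, as the change after 30 min at 34 °C in hsf-1(sy441) minus the same change in N2. The comparison used 12 of the 18 libraries of the series, in 4 groups of 3. All were polyadenylated RNA of whole Caenorhabditis elegans larvae at mid-L2, grown on OP50 bacteria at 20 °C after hatching without food. Strain PS3551, hsf-1(sy441), was collected after 30 min in a 34 °C water bath or directly from 20 °C. N2, the wild type, was collected under the same regimes. A strain with an added hsf-1 copy, AM1062, carries hsf-1(sy441) I, the transgene rmSi1[hsf-1::gfp] on II and unc-119(ed9)III, and supplied the other 6 libraries. Its values are given side by side without a test. Whether replicates came from separate cultures is not said in the labels, and the p-values cover the spread between libraries alone, which may be technical.

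HSF-1 is the heat shock transcription factor of this animal. When proteins unfold in heat, it forms trimers, binds heat shock elements in promoters and switches on chaperone genes, whose products refold or help to remove damaged proteins. The allele sy441 introduces a premature stop that removes part of the activation domain, so the mutant makes a truncated HSF-1 that still has its DNA-binding domain. In worms, hsf-1 is also needed for larval development and for a normal lifespan.

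Each gene has a heat change in each strain, the log2 ratio of 34 °C over 20 °C within replicate pairs, and the interaction is the heat change in hsf-1(sy441) minus that in N2. A positive interaction therefore means a larger rise or a smaller fall in hsf-1(sy441). Levels are in CPM, fragment counts scaled to the size of the library, and log2 values carry their SE. Genes were called at an adjusted p of 0.05 from edgeR's quasi-likelihood test with the replicate pair as a block, and every adjusted p of an interaction below is from that test unless another tool is named. In whole animals, fewer cells of a type and less RNA per cell cannot be told apart.

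The libraries held 18.2 to 34.7 M fragments each. Defining markers of the larval tissues were present, with 33 of 34 neuron, 21 of 21 muscle, 24 of 28 intestine and 30 of 35 germline markers at 1 CPM or more in each of the 12 libraries. Replicate 3 of N2 stood apart from the other N2 libraries at both temperatures. Its cuticle collagen RNA summed to 13670 CPM at 34 °C and 10870 CPM at 20 °C, against 35570 and 42370 CPM at 34 °C and 27830 and 34260 CPM at 20 °C in N2 replicates 1 and 2. The same sum was 15530, 17430 and 11530 CPM in hsf-1(sy441) at 34 °C and 8522, 7855 and 5987 CPM in hsf-1(sy441) at 20 °C. N2 replicate 3 was thus closer to the mutant than to the other N2 pairs in this group of genes. Replicate 3 also had the lowest collagen sum in hsf-1(sy441) and in the transgene strain at both temperatures, so the shift was not confined to N2. The transgene sums for replicates 1, 2 and 3 were 24210, 33270 and 14400 CPM at 34 °C and 20250, 19540 and 9980 CPM at 20 °C. The part of this difference between N2 libraries in the results below was not tested beyond the counts without each pair.

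Of 14169 genes tested, 421 (2.97%) had a called interaction. The heat change was higher in hsf-1(sy441) for 313 genes (2.21%) and lower for 108 genes (0.762%). Most of the 108 were heat-induced in N2, where 92 rose and 2 fell, and fewer responded in hsf-1(sy441), where 41 rose and 31 fell. Their median interaction was −1.31, and 33 of them differed by more than 4-fold. All 313 fell in N2 or rose in hsf-1(sy441) by a called change, a split favoured by choosing genes by the difference of these heat changes. In hsf-1(sy441) 211 of them rose and 31 fell, and in N2 39 rose and 160 fell, with a median interaction of 0.78 and 25 genes beyond 4-fold. The background is that heat raised 24% and lowered 22.8% of all genes in hsf-1(sy441), and raised 24.4% and lowered 25.8% in N2. Of the genes called for heat, 51.4% rose in hsf-1(sy441) and 48.7% in N2, and 13.2% and 19.2% with library totals as the only scaling, so heat changes are relative to the bulk of genes. The within-pair heat changes of the strains were apart for all 421 called genes, and for 26.8% of all genes tested.

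The total rests on all pairs. It was 96, 178 and 105 without hsf-1(sy441) pairs 1, 2 and 3, and 82, 177 and 1350 without N2 pairs 1, 2 and 3. The higher set had 53, 116 and 69 genes without the hsf-1(sy441) pairs and 42, 123 and 911 without the N2 pairs. The lower set had 43, 62 and 36 genes without the hsf-1(sy441) pairs and 40, 54 and 439 without the N2 pairs. Without the replicate block 65 genes were called, 28 higher and 37 lower, and all 65 were among the 421. None of the 421 was called with the other sign under any alternative.

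**Figure D1:**
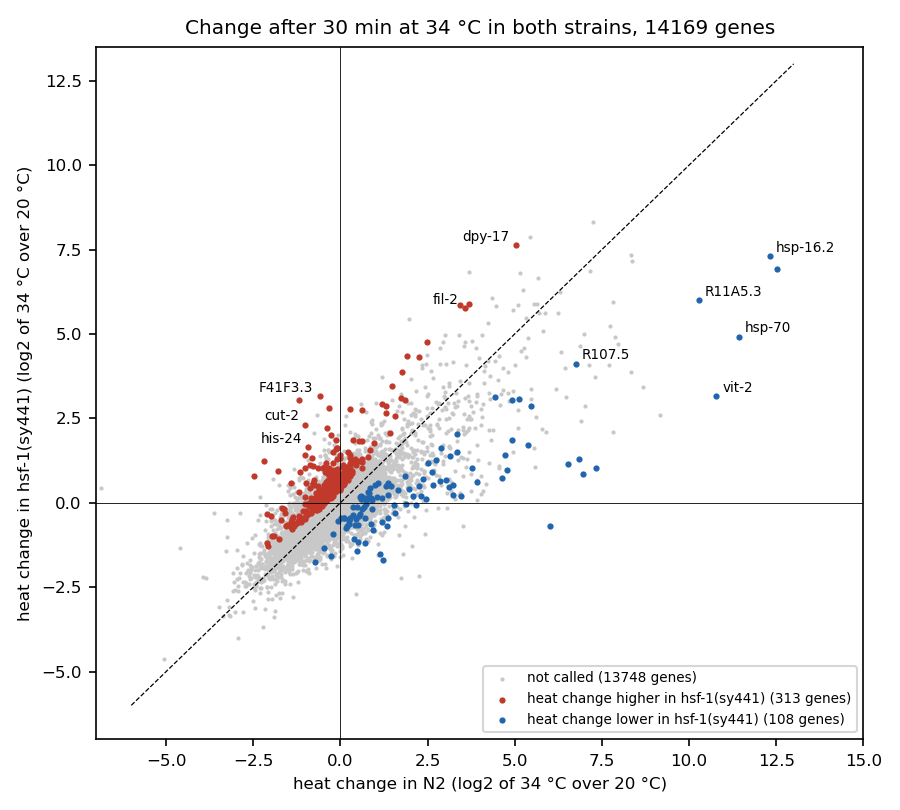
Heat change (log2 of 34 °C over 20 °C) of 14169 genes, hsf-1(sy441) on the vertical axis and N2 on the horizontal axis. The dashed line marks equal change. Red points are the 313 genes with a called higher heat change in hsf-1(sy441), blue points the 108 with a called lower one. The blue points with the largest rise in N2 lie to the right of the line, among them hsp-70 at 4.92 in hsf-1(sy441) and 11.43 in N2. The position of vit-2 depends on the prior count.

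The transcript of hsf-1 itself (Y53C10A.12) was more abundant in the mutant at both temperatures and did not show a called interaction. Its levels were 84.8, 92.4 and 98.8 CPM in hsf-1(sy441) at 34 °C and 93.0, 98.3 and 103 CPM in hsf-1(sy441) at 20 °C. In N2 they were 31.5, 30.8 and 38.5 CPM at 34 °C and 37.9, 41.97 and 38.6 CPM at 20 °C. The strains did not overlap at either temperature. The difference, hsf-1(sy441) minus N2, was 1.45 on the log2 scale at 34 °C (adjusted p = 1.34e-05, edgeR's quasi-likelihood test) and 1.31 at 20 °C (adjusted p = 3.41e-05). The interaction was 0.15 ± 0.12 (SE, adjusted p = 0.523). The allele changes the coding sequence, so the transcript level does not check the labels. In the transgene strain, where the value includes the transgene, hsf-1 had 97.7, 101 and 112 CPM at 34 °C and 104, 106 and 115 CPM at 20 °C.

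Among called genes of 10 CPM or more, hsp-70, hsp-16.41 and hsp-16.2 had the most negative interactions after the yolk protein gene vit-2. Hsp-70, hsp-16.2 and hsp-16.41 still rose in hsf-1(sy441), but their 34 °C levels were lower than in N2 by log2 differences of −4.18, −4.09 and −3.71. For hsp-70 (C12C8.1, ce10 chromosome I, 9317728 to 9327204, a locus that holds 2 genes), which encodes a cytosolic Hsp70 chaperone, hsf-1(sy441) had 61.0, 58.3 and 74.8 CPM at 34 °C and 2.34, 1.68 and 2.37 CPM at 20 °C. N2 had 1005, 1434 and 1076 CPM at 34 °C and 0.335, 0.364 and 0.594 CPM at 20 °C. The mutant was thus lower than N2 in heat and higher than N2 before it, with no overlap at either temperature. The heat change was 4.92 ± 0.13 in hsf-1(sy441), which is 30.3-fold, and 11.43 ± 0.17 in N2, which is 2759-fold. The N2 change rests on 8, 10 and 12 fragments at 20 °C, so its size is uncertain. The interaction of −6.51 ± 0.22 had an adjusted p of 1.58e-07, and hsp-70 was called under all 16 alternatives. The strain difference was −4.18 at 34 °C (adjusted p = 1.52e-06, edgeR) and 2.32 at 20 °C (adjusted p = 0.000464). With the transgene, hsp-70 had 659, 618 and 747 CPM at 34 °C and 0.686, 0.687 and 1.28 CPM at 20 °C.

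A pair of small heat shock protein genes, hsp-16.2 with the identifier Y46H3A.3 and hsp-16.41 with Y46H3A.2, lie in 1 locus of 4 genes on ce10 chromosome V, 1799725 to 1809467. Their products hold unfolding proteins in a state that other chaperones can rescue. Hsp-16.41 had 209, 194 and 306 CPM in hsf-1(sy441) at 34 °C, 1.81, 1.84 and 2.10 CPM in hsf-1(sy441) at 20 °C, 2825, 3291 and 3165 CPM in N2 at 34 °C and 0.251, 0.328 and 1.09 CPM in N2 at 20 °C. Its interaction was −5.60 ± 0.41 (adjusted p = 0.00178). Hsp-16.2 had 172, 169 and 225 CPM in hsf-1(sy441) at 34 °C, 1.25, 0.886 and 1.43 CPM in hsf-1(sy441) at 20 °C, 3037, 3271 and 3338 CPM in N2 at 34 °C and 0.335, 0.255 and 1.49 CPM in N2 at 20 °C. Its interaction was −5.01 ± 0.57 (adjusted p = 0.0162). At 20 °C the higher of the N2 values came from replicate 3 in both genes. These N2 libraries held 6, 9 and 22 fragments of hsp-16.41 and 8, 7 and 30 of hsp-16.2. The hsp-16.2 call was lost without hsf-1(sy441) pairs 1 and 3 and N2 pair 1, with an adjusted p of 0.0953, 0.0708 and 0.0954, and hsp-16.41 kept its call without each pair. In the fit of all 18 libraries neither was called, with an adjusted p of 0.165 for hsp-16.41 and 0.134 for hsp-16.2. The transgene strain reached 2210, 2134 and 2707 CPM of hsp-16.41 at 34 °C and had 0.264, 0.343 and 49.5 CPM at 20 °C, where replicate 3 stood far above the others.

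Of the 9 inducible heat shock protein genes on the list, 4 were tested and 3 of these passed the test, all with a lower heat change in hsf-1(sy441). The share was 75%, beside 0.762% of all genes tested. The list's median interaction was −5.31, beside 0.02 over all genes tested. The fourth tested gene, hsp-16.48 (T27E4.3), had few fragments, 1, 8 and 14 in hsf-1(sy441) at 34 °C and 6, 11 and 12 in N2 at 34 °C, and 0 in the 3 hsf-1(sy441) libraries at 20 °C. Its fitted interaction of 0.76 ± 0.82, which depends on the prior count, was not called (adjusted p = 0.653). In N2 at 34 °C hsp-16.41 had 40505, 64246 and 47264 fragments, and why hsp-16.48 had so few was not tested. Not tested were hsp-16.49, which was under the filter on low counts, and 4 genes with failed estimates. Of these, the Hsp70 genes F44E5.5 and F44E5.4 failed in 9 libraries each, hsp-16.11 in 6 and hsp-16.1 in 3. F44E5.5 and F44E5.4 read 0 fragments in every 34 °C library, so their heat response was not measured here.

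Of 19 constitutive cytosolic chaperones tested, 11 were lower and 2 higher in hsf-1(sy441) than in N2 at 34 °C, and 5 were lower and 1 higher at 20 °C. Over all genes tested, 13% were lower and 14.2% higher at 34 °C, and 10.4% were lower and 9.14% higher at 20 °C. In the heat change, 6 (31.6%) passed the test, all with a lower heat change in hsf-1(sy441), beside 0.762% of all genes tested. The list's median interaction was −0.14. Hsp-110 (C30C11.4), the Hsp110 that exchanges nucleotide on Hsp70, had 650.4, 649 and 699 CPM in hsf-1(sy441) at 34 °C and 438, 428 and 428 CPM at 20 °C. N2 had 5311, 6215 and 5690 CPM at 34 °C and 390, 360.3 and 393 CPM at 20 °C. The 34 °C groups were far apart, while the 20 °C difference of 0.18 was not called (adjusted p = 0.102, edgeR). Hsp-110 rose 1.54-fold in hsf-1(sy441) and 15.04-fold in N2, an interaction of −3.28 ± 0.11 (adjusted p = 1.58e-07).

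The DnaJ-domain co-chaperone gene dnj-13 (F54D5.8, in a locus of 5 genes) showed no called heat change in hsf-1(sy441). Its levels were 161, 164 and 157 CPM in hsf-1(sy441) at 34 °C and 174, 174 and 161 CPM in hsf-1(sy441) at 20 °C, against 1029, 1255 and 1119 CPM in N2 at 34 °C and 234, 221 and 304 CPM in N2 at 20 °C. The heat change was −0.08 ± 0.10 in hsf-1(sy441) (adjusted p = 0.551, edgeR) and 2.17 ± 0.11 in N2, and the interaction was −2.25 ± 0.15 (adjusted p = 3.54e-05). Hsp-90 (C47E8.5), the abundant chaperone of kinases and steroid receptors, rose 1.74-fold in hsf-1(sy441) and 3.58-fold in N2 (interaction −1.04 ± 0.09, adjusted p = 0.000291). It was already lower in hsf-1(sy441) at 20 °C, with 1687, 1668 and 1690 CPM in hsf-1(sy441), against 2479, 2334 and 2645 CPM in N2. Unc-23 (H14N18.1), a BAG-domain regulator of Hsp70 needed for muscle attachment, rose 2.28-fold in hsf-1(sy441) and 5.65-fold in N2 (interaction −1.31 ± 0.11, adjusted p = 0.000291).

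The remaining called members, hsp-1 and bag-1, are named after their values were seen. The constitutive Hsc70 gene hsp-1 (F26D10.3) had 3065, 3411 and 2922 CPM in hsf-1(sy441) at 34 °C and 2985, 3223 and 2742 CPM in hsf-1(sy441) at 20 °C, against 4492, 5197 and 5876 CPM in N2 at 34 °C and 2729, 2586 and 2970 CPM in N2 at 20 °C. The strains were apart in heat and overlapped before it (interaction −0.83 ± 0.10, adjusted p = 0.00324). Bag-1 (F57B10.11), another BAG-domain co-chaperone, had a heat change of −0.36 ± 0.11 in hsf-1(sy441) and 0.36 ± 0.11 in N2, both called (interaction −0.72 ± 0.15, adjusted p = 0.0339). The count of 6 was 5 without hsf-1(sy441) pairs 2 and 3 and N2 pairs 1 and 2. In hsf-1(sy441), 9 of the 19 chaperone genes rose and 2 fell in heat, and in N2 10 rose and 1 fell.

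**Figure D2:**
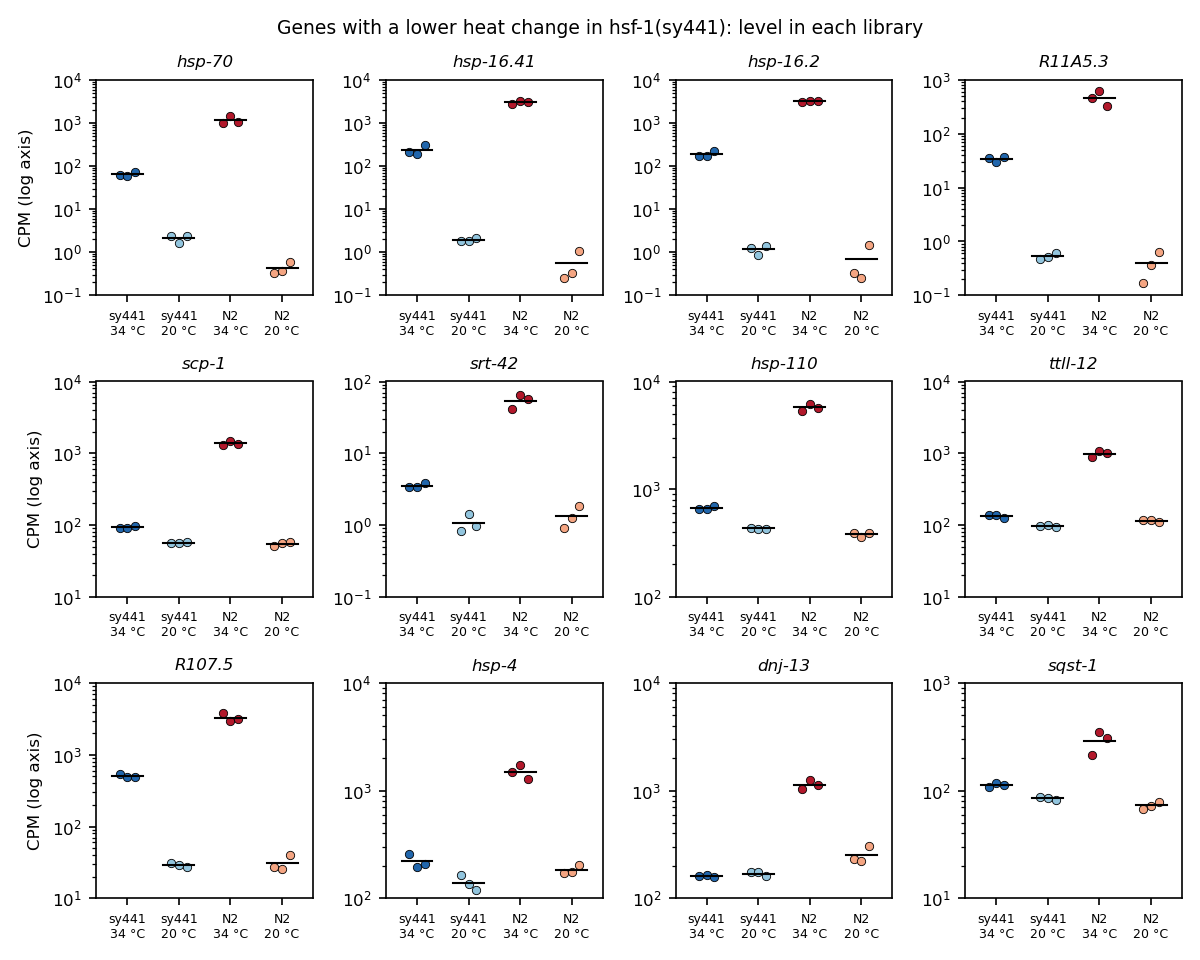
Level of 12 genes with a called lower heat change in hsf-1(sy441), in CPM on log axes that differ between panels. Points are single libraries in the order of their replicate number and bars are group means, n = 3. At 34 °C the hsf-1(sy441) libraries lie below the N2 libraries in each panel, as for scp-1 at 91.8, 91.3 and 97.8 CPM against 1287, 1482 and 1363 CPM.

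Genes outside the chaperone lists were also induced less in hsf-1(sy441). Scp-1 (D2013.8, ce10 chromosome II, 9333953 to 9338838), which encodes the escort protein that regulates the sterol-responsive factor SREBP, had the smallest p of all genes. It had 91.8, 91.3 and 97.8 CPM in hsf-1(sy441) at 34 °C and 56.3, 55.5 and 57.3 CPM in hsf-1(sy441) at 20 °C, and 1287, 1482 and 1363 CPM in N2 at 34 °C and 51.7, 55.4 and 58.6 CPM in N2 at 20 °C. The strains did not differ by a called amount before heat (0.03, adjusted p = 0.802, edgeR). In heat scp-1 rose 1.66-fold in hsf-1(sy441) and 24.9-fold in N2 (interaction −3.91 ± 0.10, adjusted p = 2.65e-08). Its neighbour ttll-12 (D2013.9), a tubulin tyrosine ligase-like gene, rose 1.37-fold in hsf-1(sy441) and 8.65-fold in N2 (interaction −2.66 ± 0.11, adjusted p = 6.32e-07).

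The gene R11A5.3 rose to 34.8, 30.6 and 36.7 CPM in heated hsf-1(sy441), against 471, 618 and 327 CPM in heated N2, and all 20 °C libraries were under 1 CPM. Its interaction was −4.28 ± 0.49 (adjusted p = 0.00688). R107.5 had 543, 484 and 497 CPM in heated hsf-1(sy441) and 3772, 2912 and 3124 CPM in heated N2, with overlapping strains at 20 °C (interaction −2.62 ± 0.19, adjusted p = 0.000348). Srt-42 (Y46H3A.1), a serpentine receptor gene, shares the locus of both hsp-16 genes, and its interaction of −3.67 ± 0.28 (adjusted p = 0.000124) may hold their reads. Bath-34 (W02A11.5), which encodes a protein with MATH and BTB domains, had 3.65, 3.77 and 3.30 CPM in heated hsf-1(sy441), against 15.9, 22.6 and 10.2 CPM in heated N2. At 20 °C it had 1.25, 1.33 and 1.46 CPM in hsf-1(sy441), against 0.71, 0.55 and 0.59 CPM in N2. The strain difference was −2.19 at 34 °C and 1.12 at 20 °C, both called, and the interaction was −3.31 ± 0.31 (adjusted p = 0.00049). Y38H6C.8 had an interaction of −3.82 ± 0.61 (adjusted p = 0.0142), and its call was lost without hsf-1(sy441) pairs 1 and 3 and N2 pair 1, with an adjusted p of 0.0953, 0.0871 and 0.0929.

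Called genes also came from the lists for the endoplasmic reticulum and for ubiquitin and aggregate handling. Hsp-4 (F43E2.8), the BiP-type Hsp70 of the endoplasmic reticulum, had 259.5, 195 and 209 CPM in hsf-1(sy441) at 34 °C and 164, 136 and 119.2 CPM in hsf-1(sy441) at 20 °C, against 1484, 1746 and 1287 CPM in N2 at 34 °C and 173, 176 and 205 CPM in N2 at 20 °C. Its rise was 1.59-fold in hsf-1(sy441) and 8.12-fold in N2 (interaction −2.36 ± 0.16, adjusted p = 0.000119). It was the called member of 21 tested on the endoplasmic reticulum list, whose median interaction was 0.20. Sqst-1 (T12G3.1), the p62 receptor that delivers ubiquitinated cargo to autophagy, rose 1.33-fold in hsf-1(sy441) and 3.91-fold in N2 (interaction −1.55 ± 0.15, adjusted p = 0.000759). On the list for ubiquitin and aggregate handling, to which sqst-1 belongs, 2 of 7 tested genes (28.6%) passed the test, both with a lower heat change in hsf-1(sy441). Over all genes tested the share was 0.762%. The list's median interaction was −0.12.

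In the heat change, the proteasome as a whole did not follow these genes. Its 31 tested members had a median interaction of −0.01, with median heat changes of 0.28 in hsf-1(sy441) and 0.29 in N2, and 1 member passed the test in each direction. Their levels were lower in hsf-1(sy441) for 21 of 31 at 20 °C and 23 at 34 °C, with median strain differences of −0.56 and −0.57. Over all genes tested, 10.4% were lower at 20 °C and 13% at 34 °C. Rpn-3 (C30C11.2), a lid subunit that lies next to hsp-110 on chromosome III, had an interaction of −0.66 ± 0.10 (adjusted p = 0.00937), and its call was lost without hsf-1(sy441) pair 3 (adjusted p = 0.0622). The β-subunit gene pbs-1 (K08D12.1) rose 1.90-fold in hsf-1(sy441) and had 0.798 of its 20 °C level in N2 (interaction 1.25 ± 0.17, adjusted p = 0.00721). That call was lost without N2 pair 1 (adjusted p = 0.0836).

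For the CCT chaperonin and prefoldin list, 0 of 13 tested genes were called with edgeR, 0 by DESeq2 and 0 by limma. At an unadjusted p of 0.05, 5 had a lower and 0 a higher heat change in hsf-1(sy441), and the median interaction was −0.10. Of all 14169 genes tested, 1057 were lower and 1784 higher at that p. The other small heat shock proteins also had 0 of 8 called by edgeR, DESeq2 and limma, with 1 lower and 0 higher at an unadjusted p of 0.05, and a median of −0.18. Without N2 pair 3, 4 members of the CCT and prefoldin list were called lower, and 1 other small heat shock protein was called lower without N2 pair 2.

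Most of the strain difference behind the lower set was found in heat. Of the 108 genes, 72 were lower in hsf-1(sy441) than in N2 at 34 °C and 7 were higher. At 20 °C 3 were lower in hsf-1(sy441) and 29 were higher. Both tests are from edgeR without a block, and over all genes 13% were lower and 14.2% higher at 34 °C, and 10.4% were lower and 9.14% higher at 20 °C. So 62 of the 108 were lower in heat with no called difference before it, 15 were higher before heat with no called difference in it, and hsp-70 and hsp-16.41 were among 7 that were higher before heat and lower in it. In the authors' deposited table, 56 of the 108 (51.9%) had a q value under 0.05 for the strains at 34 °C and 30 (27.8%) at 20 °C, beside 1727 at 34 °C and 2662 (18.8%) at 20 °C of all 14169 genes tested.

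**Figure D3:**
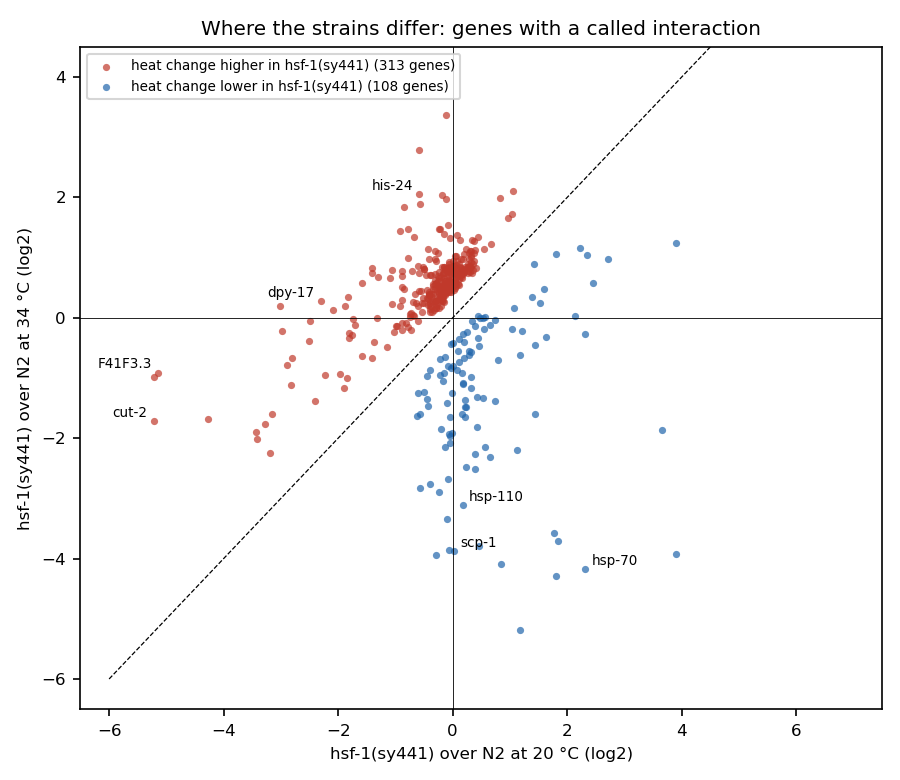
Strain difference, hsf-1(sy441) over N2 in log2, at 34 °C on the vertical axis and at 20 °C on the horizontal axis, for the 421 genes with a called interaction. The dashed line marks an equal difference at both temperatures. Most blue points (lower heat change in hsf-1(sy441)) lie below 0 on the vertical axis, with hsp-70 at −4.18 at 34 °C and 2.32 at 20 °C.

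The median heat change of the 108 genes was 0.16 in hsf-1(sy441), 0.72 with the transgene and 1.27 in N2. For scp-1 the heat change was 0.73 in hsf-1(sy441), 4.04 with the transgene and 4.64 in N2, and the transgene strain had 877, 841 and 973 CPM at 34 °C. For hsp-110 the heat changes were 0.63, 3.26 and 3.91 in the same order, and for dnj-13 they were −0.08, 1.90 and 2.17. In the transgene strain these values lay between those of hsf-1(sy441) and N2 for all 3 genes. The 313 genes of the higher set had median heat changes of 0.54 in hsf-1(sy441), 0.00 with the transgene and −0.31 in N2. Genes were chosen by the contrast of hsf-1(sy441) and N2, so the transgene medians are a description.

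Some genes kept a call under every alternative tried, 22 of the lower set and 7 of the higher set, and they are named after their values were seen. Beside those above, the lower ones included nurf-1, a gene for chromatin remodelling subunits (interaction −1.87 ± 0.17, adjusted p = 0.000759), and ikke-1, an IKK-epsilon-like kinase gene (−1.76 ± 0.11). They also included cls-2, a CLASP-type microtubule regulator gene (−1.60 ± 0.14), and efk-1, the kinase of elongation factor 2 (−0.82 ± 0.10). Ikke-1 and cls-2 lie on either side of R107.5 on chromosome III, within 5 kb of another gene of the lower set. In heated N2 the mean level was 3269 CPM for R107.5, 180 CPM for ikke-1 and 250 CPM for cls-2. Whether their values hold reads of R107.5 was not tested. Daf-7, the TGF-β ligand that links food and population density to larval growth, was the member that fell in both strains. It had 27.2, 22.6 and 29.5 CPM in hsf-1(sy441) at 34 °C and 66.3, 63.6 and 67.9 CPM in hsf-1(sy441) at 20 °C, against 36.1, 41.7 and 38.5 CPM in N2 at 34 °C and 55.3, 53.1 and 53.2 CPM in N2 at 20 °C (interaction −0.85 ± 0.12, adjusted p = 0.00477). The mutant libraries were above those of N2 before heat, where the difference was not called (0.29), and below them afterwards (−0.55, called).

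The 7 higher genes that kept their call under every alternative were Y50D4C.5, crh-1, toe-4, F52G3.1, osm-11, tac-1 and garr-1. Osm-11 (F11C7.5), a secreted Notch co-ligand linked to osmotic stress, had 854, 807 and 804 CPM in hsf-1(sy441) at 34 °C and 239, 232 and 225 CPM in hsf-1(sy441) at 20 °C, against 416, 505 and 367 CPM in N2 at 34 °C and 310, 317 and 222 CPM in N2 at 20 °C. It rose 3.54-fold in hsf-1(sy441) and 1.52-fold in N2 (interaction 1.22 ± 0.11, adjusted p = 0.000293). Tac-1 (Y54E2A.3), a centrosomal TACC protein gene, rose 2.49-fold in hsf-1(sy441) and had 0.985 of its 20 °C level in N2 (interaction 1.34 ± 0.12, adjusted p = 0.000348). Crh-1 (Y41C4A.4), the CREB transcription factor, had a heat change of 0.61 in hsf-1(sy441) and −0.42 in N2, both called (interaction 1.02 ± 0.13, adjusted p = 0.00344).

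Most of the strain difference in the full higher set was again found in heat: 196 of 313 were higher in hsf-1(sy441) than in N2 at 34 °C, and at 20 °C 13 were higher and 55 lower. The authors' deposited table had a q value under 0.05 for 112 of the 313 (35.8%) at 34 °C, beside 1727 of all 14169 genes tested. At 20 °C it had such a value for 64 of the 313 (20.4%), close to the 18.8% of all genes tested. In these 313 genes N2 replicate 3 was the lowest of the 3 N2 libraries at 20 °C in 74.1%, against 39.5% of all genes tested, and at 34 °C in 42.8%, against 38%.

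F41F3.3 had the largest positive interaction among the named genes, 3.76 ± 0.49 (adjusted p = 0.0276). It had 138, 218 and 160.3 CPM in hsf-1(sy441) at 34 °C and 15.9, 18.03 and 22.9 CPM in hsf-1(sy441) at 20 °C, and 308, 634 and 26.98 CPM in N2 at 34 °C and 571, 1412 and 19.5 CPM in N2 at 20 °C. In N2 replicate 3 both values were near the 20 °C values of the mutant. Its call was lost without each hsf-1(sy441) pair and without N2 pairs 1 and 2, with an adjusted p between 0.0715 and 0.144. The cuticlin gene cut-2 (F53F1.5), which encodes a cuticle component, had 40.8, 85.6 and 39.9 CPM in hsf-1(sy441) at 34 °C and 9.63, 10.1 and 11.6 CPM in hsf-1(sy441) at 20 °C, and 114, 421 and 12.5 CPM in N2 at 34 °C and 294, 859 and 17.6 CPM in N2 at 20 °C. Heat raised cut-2 in all 3 mutant pairs and lowered it in all 3 N2 pairs (interaction 3.33 ± 0.41, adjusted p = 0.0214). The call was lost without hsf-1(sy441) pair 1 and N2 pairs 1 and 2, with an adjusted p of 0.0886, 0.121 and 0.105.

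C02E7.7 and T08G5.3 had the same layout, with N2 replicate 3 low at both temperatures, and kept their calls without each pair (interactions 3.16 ± 0.20 and 2.60 ± 0.33, adjusted p = 3.35e-05 and 0.00481). Neither was called without the replicate block, nor were F41F3.3 and cut-2 (adjusted p between 0.397 and 0.578 for the 4 genes).

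Among 131 cuticle collagens tested, which form the matrix that larvae rebuild at each molt, 5 (3.82%) had a called higher and 1 (0.763%) a called lower heat change in hsf-1(sy441), beside 2.21% and 0.762% of all genes. Their median interaction was 0.45, beside 0.02 over all genes, and 89 of 131 were above 0, beside 7403 of 14169. The median collagen heat change was 0.71, 0.73 and 0.74 in the 3 hsf-1(sy441) pairs, 0.01, 0.45 and 0.44 in the 3 transgene pairs and 0.07, 0.20 and 0.32 in the 3 N2 pairs. Heat raised 58 and lowered 6 collagens in hsf-1(sy441), and raised 29 and lowered 4 in N2. The number called higher was 1, 14 and 2 without hsf-1(sy441) pairs 1, 2 and 3, and 1, 3 and 9 without N2 pairs 1, 2 and 3. No collagen was called lower without any 1 of the 5 pairs other than N2 pair 3.

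Dpy-17 (F54D8.1), a collagen needed for normal body shape, rose from very low levels in both strains. It had 143, 122 and 72.1 CPM in hsf-1(sy441) at 34 °C and 0.613, 0.569 and 0.486 CPM in hsf-1(sy441) at 20 °C, and 113, 68.1 and 97.4 CPM in N2 at 34 °C and 2.93, 3.21 and 2.13 CPM in N2 at 20 °C. The strains overlapped in heat and were apart at 20 °C, where hsf-1(sy441) was lower by a called amount (−2.30, adjusted p = 0.00265, edgeR). The interaction was 2.61 ± 0.34 (adjusted p = 0.0101), and it lost its call without hsf-1(sy441) pair 1 and N2 pair 1, with an adjusted p of 0.0721 and 0.0673. Col-65 (K08C9.4) had an interaction of 2.50 ± 0.43 (adjusted p = 0.0437) and dpy-3 (EGAP7.1) one of 1.502 ± 0.26 (adjusted p = 0.0384). Col-65 was lost without each pair other than N2 pair 3 (adjusted p between 0.0607 and 0.188), and dpy-3 without hsf-1(sy441) pairs 1 and 3 and N2 pairs 1 and 2 (0.0591 to 0.2). Col-152 (F32G8.5) ran the other way (interaction −2.59 ± 0.59, adjusted p = 0.0454), and its call was lost without each pair, with an adjusted p between 0.0721 and 0.149.

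On the list of molting and apical matrix genes 0 of 46 were called by edgeR and 0 by limma, and 2 were called higher by DESeq2. At an unadjusted p of 0.05, 9 had a higher and 2 a lower heat change in hsf-1(sy441). Of all 14169 genes tested, 1784 were higher and 1057 lower at that p. The median interaction of the list was 0.33 and 34 of 46 were above 0. The strains differed in this group before heat, with a median of −1.0 at 20 °C and −0.74 at 34 °C for hsf-1(sy441) minus N2. The summed level of the list was 14150, 14720 and 5759 CPM in hsf-1(sy441) at 34 °C, 14310, 10450 and 6608 CPM in hsf-1(sy441) at 20 °C, 22780, 17370 and 16030 CPM in N2 at 34 °C and 25640, 20850 and 18190 CPM in N2 at 20 °C. Molting genes cycle within each larval stage, and the part of their strain difference in the collagen and histone values was not tested.

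**Figure D4:**
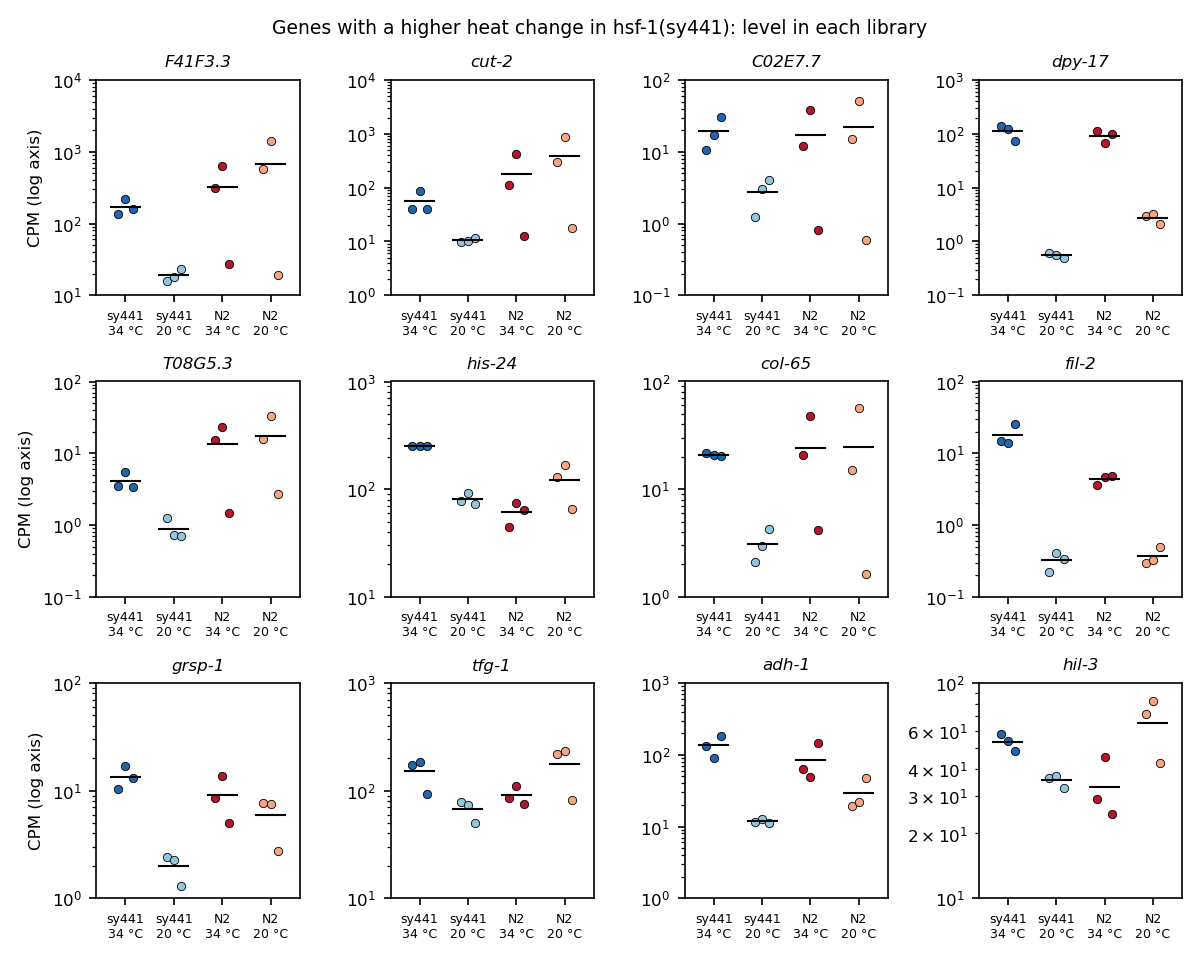
Level of 12 genes with a called higher heat change in hsf-1(sy441), in CPM on log axes that differ between panels. Points are single libraries in the order of their replicate number and bars are group means, n = 3. In F41F3.3, cut-2, C02E7.7, T08G5.3 and col-65 the rightmost N2 point (replicate 3) lies far below the other N2 points at both temperatures.

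Of 68 core histone genes, 26 were tested and 42 were under the filter on low counts. That filter keeps a gene with enough counts in any group, so the 26 may favour genes that are high after heat. Most of the 26 rose with heat in both strains, and 7 (26.9%) passed the test, all with a higher heat change in hsf-1(sy441). Over all genes tested the share called higher was 2.21%. The median interaction of the 26 was 0.70. Heat raised 22 of them in hsf-1(sy441) and 19 in N2, with median heat changes of 2.06 and 1.04. The starting level differed: 16 of the 26 were lower in hsf-1(sy441) at 20 °C, beside 10.4% of all genes tested. The median strain difference was −1.75 at 20 °C and −0.33 at 34 °C. His-61 (F55G1.10), an H2A gene, had 4.83, 4.83 and 5.63 CPM in hsf-1(sy441) at 34 °C and 0.640, 0.696 and 0.668 CPM in hsf-1(sy441) at 20 °C, and 5.09, 4.56 and 5.89 CPM in N2 at 34 °C and 2.55, 2.44 and 1.73 CPM in N2 at 20 °C. The strains overlapped in heat and were apart before it (interaction 1.73 ± 0.29, adjusted p = 0.0145).

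The number of core histones called was 0, 1 and 0 without hsf-1(sy441) pairs 1, 2 and 3, and 0, 3 and 9 without N2 pairs 1, 2 and 3. His-61 was lost without hsf-1(sy441) pairs 1 and 3 and N2 pairs 1 and 2 (adjusted p between 0.053 and 0.0968). Most core histone messages of animals lack a poly(A) tail and their genes are near-identical copies, so poly(A)-selected counts of single genes are uncertain.

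Linker histones and histone variants had 5 called of 11 tested (45.5%), all higher in hsf-1(sy441), beside 2.21% of all genes tested. Their median interaction was 0.34. Heat raised 6 and lowered 1 of them in hsf-1(sy441), and raised 3 and lowered 4 in N2. The H1 gene his-24 (M163.3) had 254, 254 and 250.1 CPM in hsf-1(sy441) at 34 °C and 78.1, 92.2 and 72.1 CPM in hsf-1(sy441) at 20 °C, and 44.8, 74.4 and 63.5 CPM in N2 at 34 °C and 131, 167 and 65.7 CPM in N2 at 20 °C. Heated mutants were above every other library. Heat raised it 3.15-fold in hsf-1(sy441), and in N2 it had 0.526 of its 20 °C level (interaction 2.58 ± 0.40, adjusted p = 0.0417). The call was lost without each pair other than N2 pair 3, with an adjusted p between 0.103 and 0.156. The H1-like gene hil-3 (F22F1.1) had a heat change of 0.59 in hsf-1(sy441) and −0.99 in N2 (interaction 1.58 ± 0.14, adjusted p = 0.000291), and hil-5 (B0414.3) one of 1.25 in hsf-1(sy441) and 0.51 in N2 (interaction 0.74 ± 0.10, adjusted p = 0.00444). Both kept their calls without each pair and lost them without the block, with an adjusted p of 0.111 for hil-3 and 0.0556 for hil-5. The number called on this list was 2 without each pair other than N2 pair 3 and 6 without that pair.

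Other genes of the higher set had varied roles. Fil-2 (K12B6.3), a lipase gene induced by fasting, rose 54.6-fold in hsf-1(sy441) and 11.8-fold in N2, and was 2.04 higher in hsf-1(sy441) on the log2 scale at 34 °C (interaction 2.21 ± 0.42, adjusted p = 0.0224). Its call was lost without hsf-1(sy441) pairs 1 and 3 and N2 pairs 1 and 2 (adjusted p between 0.0565 and 0.112). Adh-1 (K12G11.3), an alcohol dehydrogenase gene, rose 11.1-fold in hsf-1(sy441) and 2.82-fold in N2 (interaction 1.98 ± 0.32, adjusted p = 0.0391), and was lost without hsf-1(sy441) pair 1 and each N2 pair (0.0762 to 0.165). Tfg-1 (Y63D3A.5), which acts at endoplasmic reticulum exit sites, had heat changes of 1.12 in hsf-1(sy441) and −0.86 in N2, both called (interaction 1.99 ± 0.34, adjusted p = 0.0454). Its call was lost without each pair other than N2 pair 3, with an adjusted p between 0.101 and 0.162. The rest of the 14 largest positive values were grsp-1, W07B8.4, grl-17 and Y43F8B.3, with interactions between 2.07 and 2.28.

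Ribosomal protein genes rose in both strains, by near-equal amounts for most. Of 63 cytosolic ribosomal protein genes tested, heat raised 62 in hsf-1(sy441) and 60 in N2, with median heat changes of 0.90 and 0.80. Of these, 6 (9.52%) had a called higher heat change in hsf-1(sy441), beside 2.21% of all genes tested. The median interaction was 0.05, which turned to −0.01 with library totals alone. Rps-29 (B0412.4) rose 2.35-fold in hsf-1(sy441) and 1.28-fold in N2 (interaction 0.88 ± 0.12, adjusted p = 0.00443), and rpl-28 (R11D1.8) 2.18-fold and 1.35-fold in the same order (0.69 ± 0.11, adjusted p = 0.0138). Rps-29 was lost without hsf-1(sy441) pair 1 (adjusted p = 0.0532) and rpl-28 without each pair other than N2 pair 3 (0.0516 to 0.115). The count of 6 was 0, 3 and 1 without hsf-1(sy441) pairs 1, 2 and 3, and 1, 2 and 18 without N2 pairs 1, 2 and 3, and in the last case 14 others were called lower.

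Respiratory chain genes had 4 called of 50 tested (8%), all higher in hsf-1(sy441), beside 2.21% of all genes tested. Their median heat change was 0.40 in each strain. The median interaction was 0.01, which turned to −0.02 with RLE scaling and to −0.06 with library totals alone. The cytochrome c oxidase subunit gene cox-6C (F29C4.2) had 286, 293 and 271 CPM in hsf-1(sy441) at 34 °C and 125, 144 and 119.9 CPM in hsf-1(sy441) at 20 °C, and 192, 183 and 145 CPM in N2 at 34 °C and 187, 206 and 115 CPM in N2 at 20 °C. It rose in the mutant, while its N2 libraries overlapped between temperatures (interaction 1.07 ± 0.13, adjusted p = 0.00324). The number called was 1 to 3 without each pair other than N2 pair 3, and without that pair 9 were called higher and 7 lower. Mitochondrial ribosomal proteins leaned the other way, with 12 of 66 above 0 and a median interaction of −0.18, and 1 member (1.52%), mrpl-37, was called higher. Without N2 pair 3, 16 of them were called lower and 3 higher.

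Splicing factors had 6 called of 46 (13%), all higher in hsf-1(sy441), beside 2.21% of all genes tested. Their median interaction was 0.04, which turned to −0.03 with library totals alone. The SR protein gene rsp-3 (Y111B2A.18) had 435, 424 and 373 CPM in hsf-1(sy441) at 34 °C and 249, 255 and 225 CPM in hsf-1(sy441) at 20 °C, and 223, 231 and 236 CPM in N2 at 34 °C and 303, 302 and 199.8 CPM in N2 at 20 °C. Heated mutants were above all other libraries (interaction 0.95 ± 0.17, adjusted p = 0.0211). Rnp-5 (K02F3.11), which encodes an RNA-binding factor, had heat changes of 0.91 in hsf-1(sy441) and −0.44 in N2 (interaction 1.35 ± 0.22, adjusted p = 0.0214). Rsp-3 was lost without each pair other than N2 pair 3 (adjusted p between 0.059 and 0.117) and rnp-5 without hsf-1(sy441) pairs 1 and 3 and N2 pair 1 (0.0772 to 0.142). The count of 6 was 0, 2 and 0 without the hsf-1(sy441) pairs 1, 2 and 3, and 0, 2 and 8 without N2 pairs 1, 2 and 3.

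**Figure D5:**
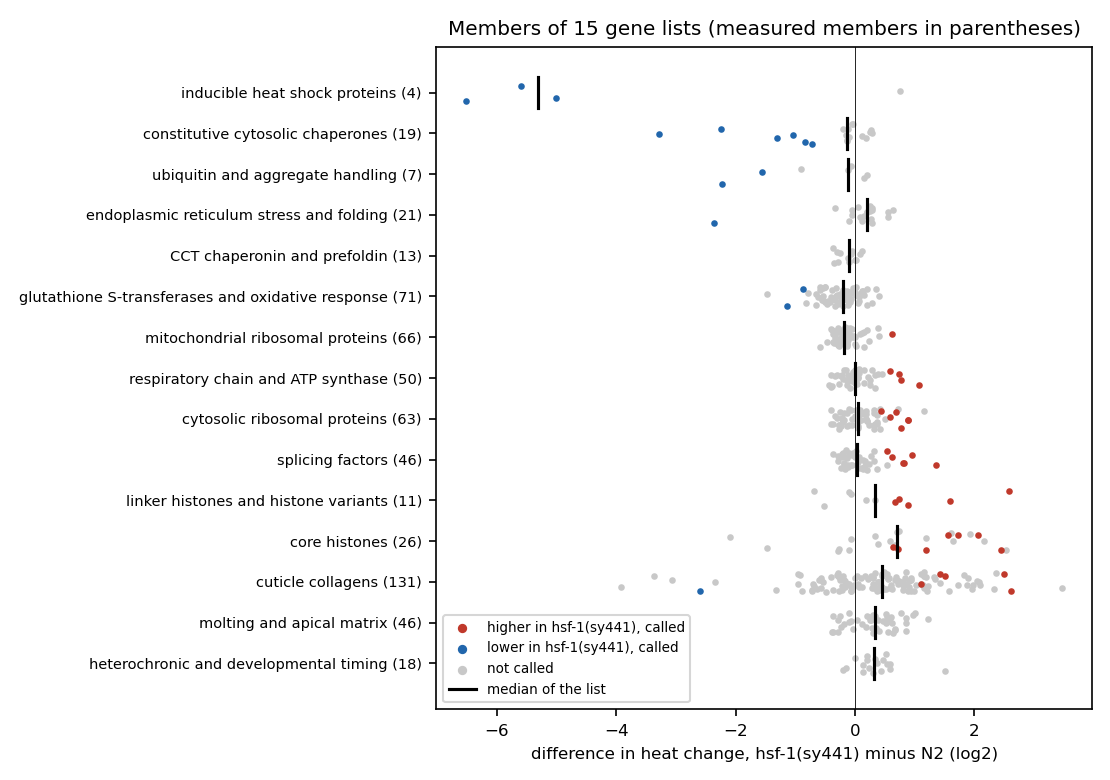
Interaction (hsf-1(sy441) minus N2, log2) of the tested members of 15 gene lists. Each point is a gene, red and blue points are called, and black bars are list medians. The inducible heat shock proteins lie at the left with a median of −5.31, the constitutive chaperones have a tail of 6 called genes to the left of a median of −0.14, and core histones lie to the right with a median of 0.70.

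Of 71 glutathione S-transferases and oxidative response genes, which detoxify reactive compounds, 2 passed the test, both with a lower heat change in hsf-1(sy441). The share was 2.82%, beside 0.762% of all genes tested. Among the 71, 15 were above 0, with a median interaction of −0.20 and median heat changes of 0.07 in hsf-1(sy441) and 0.31 in N2. The called members were gst-15 (−1.14 ± 0.26, adjusted p = 0.0496) and gst-22 (−0.87 ± 0.18, adjusted p = 0.0346). Gst-15 was lost without each pair (adjusted p between 0.0523 and 0.148) and gst-22 without each hsf-1(sy441) pair and N2 pair 1 (0.0779 to 0.114), and without N2 pair 3 12 members were called lower. Of 130 cytochrome P450 and UDP-glucuronosyltransferase genes 69 were above 0, and the median of 0.05 turned to −0.02 with library totals alone. The intracellular pathogen response list had 2 of 23 above 0 and a median of −0.29. Its called member, hip-1, was higher in hsf-1(sy441) (0.45 ± 0.10, adjusted p = 0.0423), in a locus that holds 3 genes. Hip-1 was lost without each pair other than N2 pair 3 (adjusted p between 0.122 and 0.245).

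Developmental timing genes had 0 of 18 called by edgeR and limma and 1 called higher by DESeq2, with 8 higher and 0 lower at an unadjusted p of 0.05. Of all 14169 genes tested, 1784 were higher and 1057 lower at that p. The median interaction of the timing genes was 0.31 and 15 of 18 were above 0. Lin-42 (F47F6.1), the Period-like regulator that oscillates with the molting cycle, had an interaction of 1.499 ± 0.31 (adjusted p = 0.0678). It was called without hsf-1(sy441) pair 2 (adjusted p = 0.00924) and pair 3 (0.0393). Marker lists of muscle, intestine and germline had median interactions of 0.26, 0.18 and 0.08, with ranges of summed level that overlapped between hsf-1(sy441) and N2 at 34 °C for the 3 lists and at 20 °C for muscle alone. The sums were 13900 to 15670 CPM in hsf-1(sy441) and 14110 to 16440 CPM in N2 at 20 °C for muscle, 10170 to 11550 and 12160 to 14020 CPM for intestine, and 620.4 to 640.4 and 643 to 749 CPM for germline.

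The most negative fitted interaction belonged to the yolk protein gene vit-2 (C42D8.2) and rested on 1 library. It had 0.887, 0.685 and 0.467 CPM in hsf-1(sy441) at 34 °C and 0.0278, 0.0633 and 0.122 CPM in hsf-1(sy441) at 20 °C, and 0.767, 0.820 and 29.1 CPM in N2 at 34 °C, where replicate 3 was high, and it was at 0 in the 3 N2 libraries at 20 °C. The fitted value of −7.60 ± 1.47 (adjusted p = 0.0359) depends on the prior count. Its call was lost without each pair (adjusted p between 0.0505 and 0.221) and in 11 of 16 alternatives.

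Of 2986 tested genes on chromosome V 41 (1.37%) were in the lower set, and of 2147 on chromosome X 6 (0.279%). The other chromosomes lay between 0.486% (IV) and 0.779% (III). Within 5 kb of another gene of the same set lay 33 of the 108 (30.6%) and 55 of the 313 (17.6%), beside 1.93% and 5.25% of the tested genes outside each set. Examples are hsp-110 and rpn-3, or scp-1 and ttll-12. In all, 29 genes of the lower (26.9%) and 67 of the higher set (21.4%) lie in a locus that the authors' tool merged from several genes, where reads of neighbours may be shared, as do 24.6% of all genes tested.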

How the data were processed

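Polyadenylated RNA of whole L2 larvae was sequenced with 3 libraries for each strain and temperature. Reads were aligned with TopHat2 and tested with Cuffdiff on ce10, per the submitters' processing notes, and versions, options and annotation are not given in the sources used here. The authors deposited 1 table with raw fragments (estimated counts per gene, of which 92.43% are whole numbers) and FPKM per library, per the file headers, and tables of their own strain comparisons with a q value per gene and log2 fold change. The p-values and log2 fold changes of those deposited tables were not used beyond their q values. The table numbers replicates 0 to 2, which were matched in order to the replicates 1, 2 and 3 of the labels.

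Of 20389 genes, 19880 matched a gene name. Genes with a failed estimate in any of the 18 libraries (114, with 6.11% to 7.75% of fragments) were left out. Estimated counts were rounded and fitted in R 4.3.3 with edgeR 4.0.16 (filterByExpr, TMM with factors of 0.85 to 1.24, quasi-likelihood test), with 6 strain-and-replicate pairs as a block and a heat term per strain. That left 14169 genes, 4 residual degrees of freedom and a biological coefficient of variation of 10.2%. P-values were adjusted by Benjamini-Hochberg over all genes tested and called at 0.05. Strain differences at each temperature were fitted without a block. CPM were computed with the TMM factors, and within-pair changes with a pseudocount of 0.1 CPM. Fragment totals of 18.2 to 34.7 M per library set the precision, and counting error is the lesser part in groups of 10 CPM or more. It weighs more in groups of few fragments, such as hsp-70 in N2 at 20 °C with 8, 10 and 12. The fit was run before use on data simulated from the fitted model with its block. Such data cannot check whether the replicate numbers are true pairs, nor the weight of N2 replicate 3.

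The block by strain and replicate number was fixed in the design. Same-numbered libraries of a strain deviated together from their group means, with correlations of 0.47, 0.18 and 0.72 in hsf-1(sy441) and 0.37, 0.77 and 0.79 in N2 for numbers 1, 2 and 3. One library, hsf-1(sy441) replicate 2 at 34 °C, correlated more with replicate 1 at 20 °C (0.54) than with its own number. Replicate 1 of hsf-1(sy441) at 34 °C correlated at 0.07 with replicate 2 at 20 °C. These values do not settle how numbers 1 and 2 of the mutant pair. The named genes were hsf-1, the measured inducible heat shock protein genes, the 14 largest changes in each direction among called genes of 10 CPM or more whose pair changes did not overlap, and up to 4 members of each of 31 gene lists. The members and lists were chosen with earlier results of these data known. Alternatives were the fit without the block, all 18 libraries, RLE or library totals, looser and stricter filters, failed genes kept, DESeq2 1.42.0, limma 3.58.1 on log2(FPKM + 0.1) and log2(FPKM + 1), and each pair left out, which leaves 3 residual degrees of freedom. A named gene is not reported here.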

Additional observations from a re-analysis of the deposited data

Results flagged for a closer look

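The heat responses of the strains differed for 421 genes by the test of the difference itself. Both heat changes were called, in opposite directions, in 58 of the 313 genes higher in hsf-1(sy441) and in 15 of the 108 lower. Among the named genes, 7 were raised by heat in hsf-1(sy441) and lowered in N2, with both changes called. Their interactions were 3.33 for the cuticlin gene cut-2, 2.58 for the linker histone gene his-24, 2.07 for Y43F8B.3, 1.99 for tfg-1, 1.58 for the H1-like gene hil-3, 1.35 for rnp-5 and 1.25 for the proteasome gene pbs-1. Of these, hil-3 kept its call without each pair and the others lost it without at least 1 pair. Y43F8B.3 was lost without hsf-1(sy441) pair 3 and N2 pairs 1 and 2, with an adjusted p between 0.0546 and 0.0781 (edgeR). Outside the naming rule and chosen after their values were seen, crh-1, toe-4, F52G3.1 and garr-1 were also raised in hsf-1(sy441) and lowered in N2, and they kept their interaction calls in all 16 alternatives. The heat changes in hsf-1(sy441) and in N2 were 0.61 and −0.42 for crh-1, 0.41 and −0.62 for toe-4, 0.51 and −0.65 for F52G3.1, and 1.06 and −0.46 for garr-1.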

How the results depend on the processing

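The count of 421 called genes fell to 65 without the replicate block (28 higher and 37 lower in hsf-1(sy441)), to 232 among genes of 10 CPM or more (179 and 53), to 147 with limma on log2(FPKM + 0.1) (79 and 68) and to 190 with limma on log2(FPKM + 1), where the higher count was 100. For these alternatives the cause was not tested. Of the 421 genes, 282 higher and 73 lower ones reached 10 CPM, and 228 of the 421 were called under the stricter filter. Leaving out a pair gave 82 to 1350 calls in all, 42 to 911 higher and 36 to 439 lower. The highest of each came without N2 replicate 3, and 411 of the 421 genes were then called. The count stayed within 1.5 times with all 18 libraries (454), RLE factors (382), library totals alone (333), a filter of 1 fragment (563), failed genes kept (428) and DESeq2 (463). Through all 16 alternatives 22 lower and 7 higher genes kept their call, and 32 lower and 29 higher did so without each pair. Over the named genes, 768 of 1143 pairs of a called gene and an alternative kept the call, 374 lost it and 1 reversed. The reversed values belonged to hsp-16.48, at −0.084 with DESeq2, −1.04 and −0.75 with limma on log2(FPKM + 0.1) and log2(FPKM + 1), with a range of −1.20 (without N2 replicate 2) to 1.42 (without N2 replicate 3) and −0.0066 without hsf-1(sy441) replicate 3, and to col-152, at 0.27 with limma on log2(FPKM + 1). With library totals alone the median over all genes of the heat change moved to −0.3 in hsf-1(sy441), against 0.04 with TMM, and to −0.26 in N2, against 0.01. The median strain difference moved to 0.15 at 34 °C, against 0.02, and to 0.2 at 20 °C, against 0.00. Strain differences then split to 70.3% higher at 34 °C, against 52.2%, and to 76.2% higher at 20 °C, against 46.8%. With 3 pairs a strain, depth limits little beside genes of a few fragments such as hsp-16.48 and groups of a few fragments such as hsp-70 in N2 at 20 °C.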

Other observations

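Beyond the gene groups above, autophagy genes had 4 called higher (14.3%) and 1 called lower (3.57%) of 28 tested. Over all genes tested the shares were 2.21% and 0.762%. The autophagy median interaction was 0.06, which turned to −0.01 with library totals alone. Without each pair other than N2 pair 3 the count of autophagy genes called higher was 0. Replication and cell cycle genes were lower in hsf-1(sy441) before heat for 18 of 33, beside 10.4% of all genes tested. They had 2 called higher interactions (6.06%), with a median of 0.19. Neuron markers had 2 called higher of 32 (6.25%) and a median interaction of 0.13, and heat lowered 17 in hsf-1(sy441) and 22 in N2. Mitochondrial chaperones had 1 called higher of 14 (7.14%), the chaperonin gene hsp-60 (0.71, adjusted p = 0.0215, edgeR). Hsp-60 was lost without each pair other than N2 pair 3 (adjusted p between 0.0781 and 0.134).

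Cytochrome P450 and UDP-glucuronosyltransferase genes had 1 called higher (0.769%) and 2 called lower (1.54%) of 130. Secreted defence genes had 2 called lower of 193 (1.04%). Over all genes tested the shares were 2.21% higher and 0.762% lower. FoxO target genes (23), nucleolar genes (23), translation factors (40), tRNA synthetases (28), muscle markers (19) and germline markers (33) had 0 called in edgeR. At an unadjusted p of 0.05, FoxO targets had 7 higher and 3 lower, nucleolar genes 3 and 3 and translation factors 6 and 1. For tRNA synthetases, muscle markers and germline markers the counts were 0 and 0, 8 and 0, and 2 and 0. Over all 14169 genes tested they were 1784 higher and 1057 lower. DESeq2 called 1 FoxO target, 1 nucleolar gene and 1 translation factor higher and none of the other lists, and limma on log2(FPKM + 0.1) called none of the 6. Without N2 pair 3, edgeR called 9 muscle markers, 4 FoxO targets, 4 translation factors, 2 nucleolar genes and 1 germline marker higher, and 4 translation factors and 1 nucleolar gene lower. The medians were 0.15, −0.03, 0.03, −0.06, 0.26 and 0.08. The translation factor median turned to −0.04 with library totals alone. Intestine markers had 1 called lower of 27 (3.7%), vit-2, and 10 called higher without N2 pair 3.

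In the transgene strain at 20 °C, replicate 3 had 20.98 CPM of hsp-16.2 and 49.5 CPM of hsp-16.41, against 0.528 and 0.644 CPM of hsp-16.2 and 0.264 and 0.343 CPM of hsp-16.41 in replicates 1 and 2.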
